A study of Mus musculus with 6 samples.

Results

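The genes described here are 9 genes used to recognise amacrine cells, the inhibitory interneurons of the inner retina: Gad1, Gad2, Slc32a1, Slc6a9, Pax6, Calb1, Calb2, Tfap2a and Tfap2b. They were chosen by name, for their known place in these cells, but with earlier results of these data known. The other gene lists below were also chosen with those results known, so their counts beside those of all genes are a description. All 9 genes were in the table of 15450 named genes, where they held 23 of 26691 transcript rows. RNA-seq of polyadenylated RNA had been made from sorted mouse retinal cells, and the design asks which RNA levels differ with AAV-Sox11 after nerve injury. In the AAV-Sox11 group an adeno-associated virus (AAV) carried the transcription factor Sox11, and in the AAV-Control group it carried PLAP, placental alkaline phosphatase, a reporter enzyme. Every mouse in both groups was about 3 to 4 weeks old at the start, held the virus in the eye for 2 weeks, and had its optic nerve crushed 3 days before the retina was taken. There was thus no uninjured group and no group without virus. The labels give no strain and name no promoter for the viral genes, so which cells carried them was not analysed here.

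Each group had 3 libraries, A, B and C, and each library pooled 3 retinas from 3 animals. The cells were sorted live on the surface protein Thy1 and are labelled as retinal ganglion cells, whose axons make up the optic nerve. The same letter marks a control and a Sox11 preparation made on the same day. Library totals ran from 10695330 to 11657271 normalized values, which are scaled by the authors and have no unit beyond that scale. Sox11 itself had 179.3, 233.7 and 283.6 in AAV-Sox11 libraries A, B and C, against 131.1, 110.8 and 100.3 in the AAV-Control libraries. The groups did not overlap, with a log2 fold change of 1.0 ± 0.20 (SE) and a limma adjusted p of 0.0504, just outside the threshold of 0.05. Over all genes, 123 rose and 235 fell in limma, or 323 and 414 with the replicate letter as a block. Library size alone as the scaling gave 103 and 356, so that 22.4% of calls were higher, against 34.4%.

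The deposited values lack part of the replicate spread. Of the 5 directions in which 6 libraries can differ, 1 held no spread beyond rounding, with an SD of 9.48e-05 in natural log units, against 0.017 from read counting alone. By squared weight, that direction lay to 57.7% in AAV-Sox11 B, to 18.4% in AAV-Sox11 A and to 12.5% in AAV-Sox11 C. The narrow SDs of the AAV-Sox11 group therefore cannot be read as libraries that were more alike. That direction lay almost at right angles to the group contrast (cosine -0.0185), so fits without it as a covariate count it as replicate spread. Their SEs and p-values, which are those given below unless stated, are therefore too small. The same holds for the replicate block, whose calls over all genes went from 323 and 414 to 63 and 69 with that direction added. No gene in the table passed in limma when AAV-Sox11 A, B or C was left out, or when the missing direction was a covariate, so every gene call below is lost in those fits. At an unadjusted p under 0.05 those 4 fits still gave 1942 to 3120 genes. An index of sex-linked transcripts, log2 Xist over Y genes, ran from 6.86 to 8.45 with AAV-Sox11 and from 5.26 to 6.82 with AAV-Control, although the labels state an approximate balance of sexes. With that index as a covariate no gene passed in limma, and 2702 had an unadjusted p under 0.05.

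Amacrine cells receive input from bipolar cells and act on bipolar cells, ganglion cells and each other, mostly through GABA or glycine. Glutamate decarboxylases, encoded by Gad1 and Gad2, make GABA from glutamate, and Slc32a1 encodes the vesicular transporter that loads either GABA or glycine into synaptic vesicles. Slc6a9 encodes a plasma membrane glycine transporter that glycinergic amacrine cells carry. Pax6 is a homeodomain and paired-domain transcription factor of eye development that amacrine, ganglion and horizontal cells keep in the adult. Tfap2a and Tfap2b encode transcription factors of the AP-2 family that act in the development of amacrine and horizontal cells. Calb1 and Calb2 encode the calcium-binding proteins calbindin and calretinin, found in subsets of amacrine cells and also in horizontal or ganglion cells. In GRCm38, on the plus strand, Gad1 spans chr2:70553072-70602014, Gad2 chr2:22622205-22693874, Slc32a1 chr2:158610767-158615748, Pax6 chr2:105668900-105697364, Slc6a9 chr4:117834506-117875198, Calb1 chr4:15881264-15908064 and Tfap2b chr1:19208914-19238576. Calb2 spans chr8:110137502-110168210 and Tfap2a chr13:40715302-40738376 on the minus strand.

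The cells are labelled as ganglion cells, and transcripts of all 9 genes were measured in all 6 libraries, at levels that differed widely among the genes. Per kilobase of annotated transcript, Gad2 had 1762 in AAV-Sox11 and 1493 in AAV-Control libraries, at the 98.6th percentile of all genes with a length, and Pax6 had 1121 and 1718, at the 98.1th percentile. On the same per-kilobase scale the sorted surface protein Thy1 had 1676 with AAV-Sox11 and 1327 with AAV-Control. The ganglion cell gene Slc17a6, a vesicular glutamate transporter, had 581 per kilobase with AAV-Sox11 and 287 with AAV-Control, and Rbpms, an RNA-binding protein of ganglion cells, had 17.0 and 17.2 in these groups. Below Gad2 and Pax6 came Slc32a1, with 493 per kilobase in AAV-Sox11 and 514 in AAV-Control libraries, Calb2 with 253 and 300, and Slc6a9 with 184 and 397 in the same groups. Gad1 had 121 per kilobase with AAV-Sox11 and 112 with AAV-Control, and Calb1 64.4 and 78.4. The AP-2 genes were lowest, at 26.3 per kilobase with AAV-Sox11 and 18.8 with AAV-Control for Tfap2a, and 23.9 and 20.8 for Tfap2b. Percentiles on this scale were 88.2 for Slc32a1, 76.9 for Slc6a9, 75.8 for Calb2, 52.7 for Gad1, 40 for Calb1, 16.3 for Tfap2a and 16.2 for Tfap2b. Over all libraries, the per-kilobase ranges of these neighbours overlapped: Gad2 and Pax6, Slc32a1 and Slc6a9, Slc6a9 and Calb2, Gad1 and Calb1, and the AP-2 pair. The sums of Pax6 and Slc6a9 include short non-coding rows. In AAV-Control libraries Pax6-226 and Pax6-209 had 296 and 279 per kilobase, beside 265 and 224 for coding Pax6-202 and Pax6-208. Slc6a9-205 and Slc6a9-212 had 155 and 137, beside 49.1 for coding Slc6a9-211. The ranks of Pax6 and Slc6a9 thus rest in part on non-coding rows. In bulk libraries, fewer cells of a type and less RNA per cell cannot be told apart.

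With AAV-Sox11, 2 of the 9 genes fell in limma, Slc6a9 and Pax6, and none rose. Both calls are lost with the missing direction as a covariate (limma adjusted p = 0.113 for Slc6a9 and 0.084 for Pax6). In the limma fit without covariates 1.52% of all genes fell and 0.796% rose, 2.32% in all. At an unadjusted p under 0.05, 2 of the 9 were lower and none was higher, against 11.8% lower and 24.3% in either direction among all genes. The values of AAV-Sox11 and AAV-Control did not overlap for these 2 genes, both lower, nor for Tfap2a, higher with AAV-Sox11. Such separation was seen for 14.4% of all genes in the lower direction and 16.2% in the higher, 30.7% in all. The median log2 fold change of the 9 was -0.05, beside 0.03 for all genes. With 9 genes, these counts describe the list and do not set it apart from other genes.

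**Figure D1:**
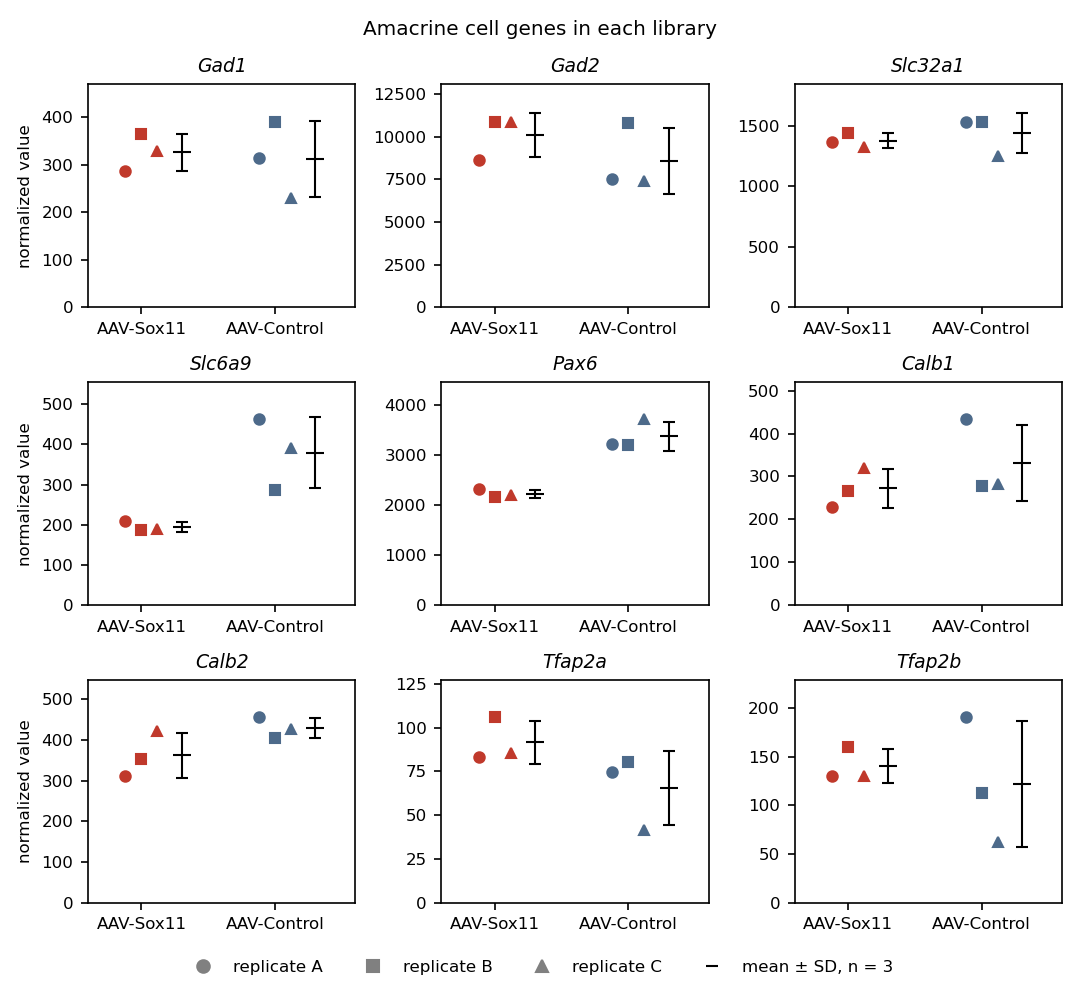
Normalized value (vertical axis, from 0, no unit beyond the authors' scaling) of each of the 9 amacrine genes in the 3 AAV-Sox11 libraries (left) and the 3 AAV-Control libraries (right), 1 point per library, with the marker shape giving the replicate letter and the bars the mean ± SD (n = 3). The AAV-Sox11 points of Slc6a9 lie between 185.9 and 208.5 and those of Pax6 between 2159 and 2314, all below the AAV-Control points of the same gene, whereas for Gad2, Slc32a1 and Gad1 the groups overlap.

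The enzymes that make GABA and the transporter that loads it into vesicles did not pass the test. Gad2 had 8633, 10852 and 10879.9 in AAV-Sox11 libraries A, B and C, and 7527, 10782 and 7410.3 in AAV-Control libraries A, B and C. Control B lay level with the AAV-Sox11 libraries and controls A and C lay below all of them, although Gad2 was higher with AAV-Sox11 in 3 of 3 same-day pairs. The log2 fold change was 0.25 ± 0.17 (SE, limma adjusted p = 0.38).

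Gad1 had 286.7, 364.5 and 327.8 with AAV-Sox11, and 313.6, 390.3 and 230.6 with AAV-Control, so that the lowest and the highest value were both in controls. Its log2 fold change was 0.09 ± 0.20 (SE, limma adjusted p = 0.805). Without control C it was -0.11. The 2 rows behind the value, Gad1-208 and Gad1-205, both stop short of the annotated end of the gene, and the full-length transcript Gad1-201 was not analysed here. The per-kilobase level of Gad1 beside that of Gad2 therefore rests on partial transcripts. Slc32a1 had 1366, 1444 and 1326 with AAV-Sox11, and 1535, 1531 and 1249 with AAV-Control, with control C below and controls A and B above every AAV-Sox11 library. Its log2 fold change was -0.05 ± 0.10 (SE, limma adjusted p = 0.771). Of the exon bases of Slc32a1, 24.9% overlap those of Gm14205 on the opposite strand, and no source used here says whether the counting used strand.

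Among 10 measured genes of 11 listed for GABA synthesis, transport and breakdown, none passed in limma, and 2 were higher and 0 lower at an unadjusted p under 0.05. Of all genes, 12.6% were higher and 11.8% lower at that p. The median log2 fold change of the 10 was -0.03. Slc6a11, a GABA transporter of glia and some neurons, had 4087, 5118 and 3665 with AAV-Sox11, and 2462, 2873 and 1312 with AAV-Control, without overlap and with control C the lowest (log2 fold change 1.01 ± 0.28, SE, limma adjusted p = 0.0892). With the replicate block, without the missing direction as a covariate, Slc6a11 passed in limma, at an adjusted p of 0.0327. Abat, the transaminase that breaks GABA down, had 0 ± 0.10 as its log2 fold change (SE).

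Markers of Muller glia, which also take up GABA, are given beside these values. Of 11 measured genes of 13, none passed in limma in either direction, at an adjusted or an unadjusted p under 0.05, and their summed level ran from 45050.2 to 53319 with AAV-Sox11 and from 34288 to 60781 with AAV-Control. Most of that sum was a single gene, Dkk3, with 36838 to 43615 in AAV-Sox11 and 26817 to 43933 in AAV-Control libraries. Glul, Aqp4 and Sox9 were highest in control A, at 7396, 4092 and 844.7, whereas Dkk3 was highest in control B and Apoe in AAV-Sox11 A. None of the measured values in the table was 0. The part of glia in the Slc6a11 values was not tested.

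Slc6a9, the glycine transporter, had 208.5, 185.9 and 190 with AAV-Sox11, and 462.1, 285.3 and 391.7 with AAV-Control. Every AAV-Sox11 library lay below every control, and control B was the nearest. It fell to 194.8 ± 12 in AAV-Sox11 libraries, against 379.7 ± 89.0 in AAV-Control libraries (SD, n = 3 each), a fold of 0.524. The log2 fold change was -0.93 ± 0.18 (SE), and the limma adjusted p of 0.0481 was close to the threshold. It was 0.117, 0.216 and 0.135 without AAV-Sox11 A, B and C, 0.0816 without control A and 0.07 without control C, and log2 fold changes ran from -1.12 to -0.78 over all alternatives.

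The 5 Slc6a9 rows start at different places along chromosome 4, so the RefSeq promoter windows in which 3 of them begin are shown, from the start nearest the head of the gene to the one farthest inside it. Each window runs from 250 bases before to 50 bases after a RefSeq start in GRCm38.p6, plus strand, 5′ to 3′. Capitals mark a match to ACAAAG, a core of SOX family binding sites, searched on both strands (CTTTGT is the reverse complement). Slc6a9-201 begins in the window chr4:117835008-117835307, Slc6a9-211 in chr4:117849100-117849399 and Slc6a9-205 in chr4:117855297-117855596.
Slc6a9-201 window: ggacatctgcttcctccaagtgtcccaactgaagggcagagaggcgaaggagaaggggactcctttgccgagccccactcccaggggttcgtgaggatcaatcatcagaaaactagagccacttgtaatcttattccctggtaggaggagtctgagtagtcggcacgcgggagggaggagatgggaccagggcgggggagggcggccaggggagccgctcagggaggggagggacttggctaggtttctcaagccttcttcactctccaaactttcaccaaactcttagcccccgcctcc
Slc6a9-211 window: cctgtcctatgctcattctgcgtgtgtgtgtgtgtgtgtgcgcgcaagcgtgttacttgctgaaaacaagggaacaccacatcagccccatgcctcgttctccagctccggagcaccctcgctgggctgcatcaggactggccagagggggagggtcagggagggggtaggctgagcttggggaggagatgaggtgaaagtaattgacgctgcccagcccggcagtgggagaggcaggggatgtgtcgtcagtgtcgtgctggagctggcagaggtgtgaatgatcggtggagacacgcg
Slc6a9-205 window: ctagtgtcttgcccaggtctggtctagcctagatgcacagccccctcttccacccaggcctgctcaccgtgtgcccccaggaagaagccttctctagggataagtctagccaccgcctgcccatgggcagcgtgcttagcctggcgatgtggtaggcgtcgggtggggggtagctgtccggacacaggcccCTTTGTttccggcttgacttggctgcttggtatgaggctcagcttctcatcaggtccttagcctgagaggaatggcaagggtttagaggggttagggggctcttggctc
The last of these holds 1 match, on the minus strand, and the other 2 hold none. ACAAAG occurs on either strand in 18.7% of all 32851 RefSeq promoter windows, and another SOX core, AACAAT, which none of the 3 windows holds, in 10.7%. A match is a description of the letters and says nothing of whether Sox11 bound there.

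All 5 Slc6a9 rows were lower with AAV-Sox11 without overlap, a separation found in 15.3% of all rows, yet none passed in limma over all rows, where 1.46% did in the lower direction. At an unadjusted p under 0.05, 4 were lower, against 12.4% of all rows. The row farthest inside of the 3 shown, Slc6a9-205, a short non-coding transcript of 370 bases, had 10.43, 7.279 and 13.07 with AAV-Sox11, and 60.19, 23.53 and 87.82 with AAV-Control. Its log2 fold change was -2.22 ± 0.46 (SE, limma adjusted p = 0.053). Slc6a9-211, a coding row, had 25.02, 21.81 and 23.13 with AAV-Sox11, and 98.07, 43.14 and 56.92 with AAV-Control (-1.38 ± 0.30, SE, limma adjusted p = 0.0573). Without control B these 2 rows passed, at 0.0205 for Slc6a9-205 and 0.034 for Slc6a9-211. Control B was again the control nearest to the AAV-Sox11 group in both rows. Slc6a9-207 had a log2 fold change of -0.89 ± 0.23, Slc6a9-201 of -0.52 ± 0.25 and Slc6a9-212, at the end of the gene, of -0.34 ± 0.14 (SE). With the replicate block 3 of the 5 rows passed: Slc6a9-205, Slc6a9-211 and Slc6a9-207, at adjusted p of 0.0238, 0.0357 and 0.04. In that fit 2.93% of all rows fell. The authors' deposited table gives the same 3 rows a false discovery rate under 0.05, with log2 fold changes of -2.46, -1.50 and -0.94, and 4.91% of all rows have one in the lower and 1.93% in the higher direction.

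Slc6a9-212, a retained-intron row, made up 37.7% of the gene's value with AAV-Sox11, against 25.4% with AAV-Control, and Slc6a9-205 made up 5.26%, against 14.6%. Their shares against the rest of the gene differed by 0.85 ± 0.24 and -1.43 ± 0.42 (log2, SE), with limma adjusted p of 0.169 and 0.185 over all row shares. Those shares were thus not called. The transcript Slc6a9-202 was not analysed here, so the gene value is a sum over the rows given and not over all transcripts.

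Strand bears on part of the gene. Of the exon bases of Slc6a9-201 and Slc6a9-207, 44.7% and 31.5% overlap exons of genes on the opposite strand, Ccdc24 and Gm17114, and for Slc6a9-201 also B4galt2. Both rows of Ccdc24 fell, with log2 fold changes of -0.97 ± 0.14 and -1.24 ± 0.22 (SE), at limma adjusted p of 0.026 and 0.0365. Both rows of B4galt2 had log2 fold changes of 0.01 and 0.27. Exons of Slc6a9-211, Slc6a9-205 and Slc6a9-212 overlap none of these. Their log2 fold changes were -1.38, -2.22 and -0.34, beside -0.52 and -0.89 for the overlapped Slc6a9-201 and Slc6a9-207, and none of the 5 passed the test.

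Slc6a5, the glycine transporter of the plasma membrane that is best known from spinal cord and brainstem neurons, also fell. It had 2711, 2435 and 2208 with AAV-Sox11, and 4107, 3553 and 3669 with AAV-Control, without overlap (log2 fold change -0.63 ± 0.10, SE, limma adjusted p = 0.0294). Per kilobase Slc6a5 had 347 with AAV-Sox11 and 535 with AAV-Control, so it was the more abundant of the pair of glycine transporters in both groups. Without control A the adjusted p of Slc6a5 was 0.0696, and with no mean-variance trend 0.0672. In limma 1.52% of all genes fell. Slc6a9 and Slc6a5 were the only 2 of 9 listed genes of glycine transport and metabolism that passed, with a list median of -0.07. The others did not pass: Dld, a subunit of the glycine cleavage system and of other dehydrogenases, had 0.15 ± 0.07, Gcsh, its carrier protein, -0.07 ± 0.12, and Shmt2, which interconverts serine and glycine in mitochondria, 0.27 ± 0.12 (log2 fold change, SE).

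**Figure D2:**
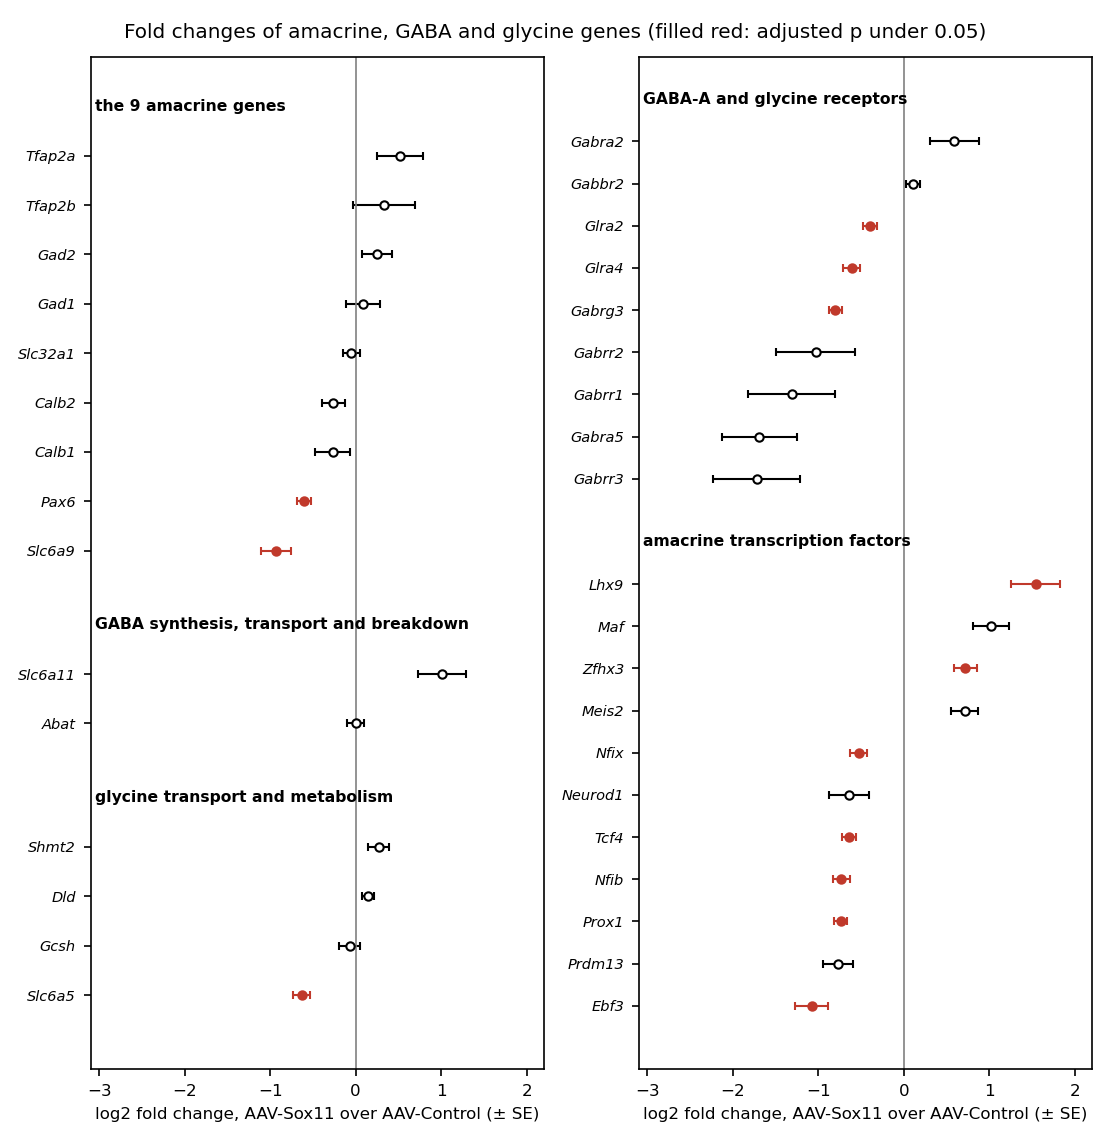
Log2 fold change, AAV-Sox11 over AAV-Control, ± SE of the limma fit (horizontal axis) for the genes named in the text, grouped by list, 1 row per gene, with filled red points at an adjusted p under 0.05. Slc6a9 (-0.93), Slc6a5 (-0.63) and Pax6 (-0.60) lie left of 0 and are filled, while Slc6a11 (1.01) lies right of 0 and is not.

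Pax6 had 2314, 2159 and 2202 with AAV-Sox11, and 3215, 3194 and 3709 with AAV-Control. The 3 AAV-Sox11 libraries all lay below the lowest control, with control C the highest. It fell to 2225 ± 80.2 in AAV-Sox11 libraries, against 3372 ± 292 in AAV-Control libraries (SD, n = 3 each), a fold of 0.661. The log2 fold change was -0.60 ± 0.08 (SE, limma adjusted p = 0.022). The adjusted p was 0.0798, 0.163 and 0.0928 without AAV-Sox11 A, B and C, and 0.0537 without control A, and the log2 fold change stayed between -0.73 and -0.45 over all alternatives.

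The table splits Pax6 into 10 transcript rows. Of these, 9 had a negative log2 fold change, 7 were lower without overlap and 3 passed in limma, or 6 with the replicate block. Of all rows, 15.3% were lower without overlap, 1.46% fell in limma and 2.93% fell with the replicate block. The authors' deposited table gives 7 of the 10 a false discovery rate under 0.05, and 4.91% of all rows one with a lower value. The 3 that fell were coding rows: Pax6-208, Pax6-202 and Pax6-224. Pax6-208 had 580.7, 597.1 and 619.4 with AAV-Sox11, and 976.7, 1013 and 983.2 with AAV-Control (log2 fold change -0.73 ± 0.09, SE, limma adjusted p = 0.0184). Pax6-202 had 542.1, 488.1 and 452.5 with AAV-Sox11, and 866, 763.9 and 808.6 with AAV-Control (-0.72 ± 0.11, SE, limma adjusted p = 0.0271). In both rows every AAV-Sox11 library lay below every control. Pax6-224 had 119.9, 114.2 and 131.7 with AAV-Sox11, and 230.1, 195.1 and 251.8 with AAV-Control (-0.88 ± 0.15, SE, limma adjusted p = 0.0333). Without control A the adjusted p was 0.0583, 0.073 and 0.0793 for Pax6-208, Pax6-202 and Pax6-224, and without control C it was 0.0557 for Pax6-224.

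Pax6-222, the exception, had 420.1, 423.7 and 442.4 with AAV-Sox11, and 388.3, 406 and 433.2 with AAV-Control. The groups overlapped, and the log2 fold change was 0.07 ± 0.10 (SE, limma adjusted p = 0.733). This row is annotated as a retained intron and starts inside the gene, 13.63 kb after its first annotated start. It made up 18.2, 19.6 and 20.1% of the Pax6 value with AAV-Sox11, and 12.1, 12.7 and 11.7% with AAV-Control, so that its share did not overlap between the groups. Against the other Pax6 rows the share was higher by 0.79 ± 0.13 (log2, SE), with an unadjusted p of 0.000264 and a limma adjusted p of 0.106 over 15873 row shares. No row share in the table passed after adjustment, while 2573, or 16.2%, had an unadjusted p under 0.05, as did 4 of the 17 row shares of the genes described here. Pax6-209, a neighbouring retained-intron row, had 316.9, 253.4 and 236.3 with AAV-Sox11, and 260.2, 281.4 and 375.3 with AAV-Control. The groups overlapped there too, and its log2 fold change of -0.18 ± 0.18 (SE) did not pass.

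**Figure D3:**
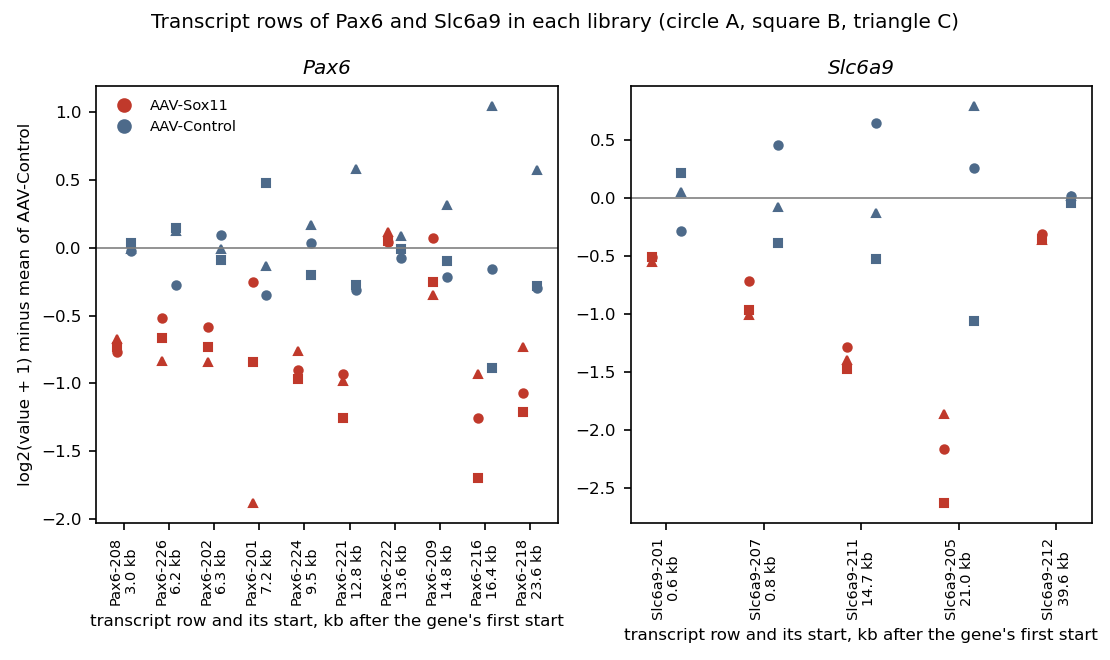
Log2(value + 1) of each transcript row of Pax6 (left) and Slc6a9 (right) in each library, minus the mean of the AAV-Control libraries for that row, with rows ordered along the horizontal axis by where they start in the gene (kb after its first start) and marker shape giving the replicate letter. The groups overlap in Pax6-222, Pax6-209 and the scarce Pax6-201, and the AAV-Sox11 points of the other 7 Pax6 rows and all 5 Slc6a9 rows lie below the AAV-Control points.

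Promoter windows of Pax6 are shown to place the start of Pax6-222 within the gene. RefSeq gives a window at the head of the gene, chr2:105668646-105668945, and an internal one, chr2:105682213-105682512, both on the plus strand of GRCm38.p6. No Pax6 row of the table starts inside either window. Pax6-222 begins at chr2:105682535, only shortly after the end of the internal window, whose RefSeq start is chr2:105682463. The windows are shown with matches to ACAAAG in the internal window, and to GCCNNNGGC, an AP-2 motif, in the first window, in capitals.
Pax6 first window: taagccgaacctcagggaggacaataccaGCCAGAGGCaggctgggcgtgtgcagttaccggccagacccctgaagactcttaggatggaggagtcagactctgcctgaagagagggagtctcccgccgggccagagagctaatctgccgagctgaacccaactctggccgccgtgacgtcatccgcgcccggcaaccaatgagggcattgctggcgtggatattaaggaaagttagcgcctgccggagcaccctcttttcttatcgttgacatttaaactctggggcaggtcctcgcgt
Pax6 internal window: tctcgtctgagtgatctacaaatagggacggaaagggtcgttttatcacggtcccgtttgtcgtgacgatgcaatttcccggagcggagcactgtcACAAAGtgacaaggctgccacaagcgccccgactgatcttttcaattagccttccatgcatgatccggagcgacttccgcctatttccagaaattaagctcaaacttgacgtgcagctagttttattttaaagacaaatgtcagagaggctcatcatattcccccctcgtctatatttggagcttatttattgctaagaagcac
The internal window holds 1 match to ACAAAG on the plus strand and none to AACAAT, and the first window holds neither. GCCNNNGGC, searched on both strands, occurs once in the first window and not in the internal one, and in 16.6% of all 32851 RefSeq windows. Windows were found for 7 of the 9 genes. Among those not shown, the window of Gad1, which did not pass, holds 2 matches to ACAAAG. That of Gad2, which did not pass either, holds 2 matches to GCCNNNGGC. The windows of Slc32a1, Tfap2a and Tfap2b hold no match to these motifs.

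Another feature of the Pax6 rows is the alternative exon spliced into the paired domain, which changes the DNA sequences the protein prefers. In GRCm38 it spans the 42 bases chr2:105684751-105684792 on the plus strand and is shown because it is held by rows with unlike fold changes.
Pax6 alternative exon: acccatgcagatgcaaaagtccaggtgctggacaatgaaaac
As a separate exon it is held by Pax6-224 and Pax6-201, coding rows, and by Pax6-222. Rows that hold the same bases inside a longer exon were not looked for. Pax6-209 and Pax6-221, retained-intron rows that span this place, may be such rows. Their log2 fold changes were -0.18 ± 0.18 and -1.06 ± 0.25 (SE), and neither passed in limma. Pax6-224 fell, Pax6-222 had a log2 fold change near 0, and Pax6-201 had 11.45, 7.272 and 3.019 with AAV-Sox11, and 10.67, 19.62 and 12.54 with AAV-Control (-0.99 ± 0.45, SE, not past the threshold). The abundant coding rows Pax6-208 and Pax6-202 lack it as a separate exon and had log2 fold changes close to that of Pax6-224. Rows of a gene share exons, and how reads in shared exons were divided among them is not stated in any source used here.

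**Figure D4:**
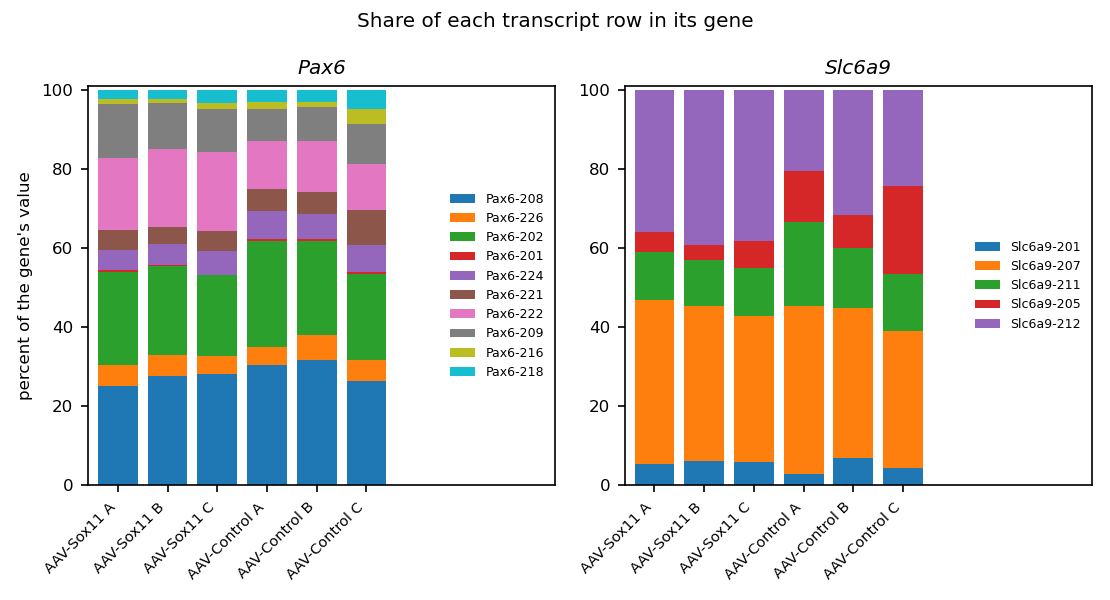
Percent of the gene's summed value held by each transcript row of Pax6 (left) and Slc6a9 (right), 1 stacked bar per library, AAV-Sox11 libraries left of AAV-Control libraries. Pax6-222 takes 18.2 to 20.1% in AAV-Sox11 libraries and 11.7 to 12.7% in AAV-Control libraries, and Slc6a9-212 takes 36.0 to 39.1% and 20.4 to 31.6%.

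Tfap2a had 83.41, 105.9 and 85.47 with AAV-Sox11, and 74.76, 80.41 and 41.48 with AAV-Control. Every AAV-Sox11 library lay above every control, by a narrow margin over control B, and control C was the lowest. The log2 fold change of 0.52 ± 0.27 (SE, limma adjusted p = 0.282) did not pass. Its close relative Tfap2b had 130.3, 159.9 and 129.7 with AAV-Sox11, and 190.3, 112.8 and 62.7 with AAV-Control. The controls spanned more than the whole range of the AAV-Sox11 libraries, and the log2 fold change was 0.33 ± 0.36 (SE, limma adjusted p = 0.608), or -0.07 without control C. Control C was thus the lowest library for Gad1, Gad2, Slc32a1, Tfap2a and Tfap2b, while it was the highest for Pax6. Of the exon bases of the Tfap2a row, 7.6% overlap Gm47061 on the opposite strand.

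Of 34 transcription factors listed for amacrine cells and their subtypes, 29 were measured, and 2 rose and 6 fell in limma, or 4 and 8 with the replicate block. Of all genes, 0.796% rose and 1.52% fell in limma, and 2.09% rose and 2.68% fell with the replicate block. At an unadjusted p under 0.05, 5 of the 29 were higher and 12 lower, against 12.6% higher and 11.8% lower of all genes. Their median log2 fold change was -0.40, against 0.03 over all genes, and 18 of the 29 values were negative. Besides Pax6, those that fell were Prox1, Nfib, Nfix, Tcf4 and Ebf3. Prox1, a homeodomain factor of horizontal cells and of glycinergic amacrine subtypes, had 6358, 6476 and 7039 with AAV-Sox11, and 11695, 10448 and 11102 with AAV-Control (log2 fold change -0.74 ± 0.08, SE, limma adjusted p = 0.0153). Every AAV-Sox11 library lay below every control. Nfib and Nfix, nuclear factor I proteins, had log2 fold changes of -0.73 ± 0.10 and -0.53 ± 0.10, Tcf4, a basic helix-loop-helix factor, -0.64 ± 0.08, and Ebf3, also found in ganglion cells, -1.08 ± 0.19 (SE), with adjusted p between 0.0169 and 0.0425. Without control A the adjusted p of Nfib was 0.054, that of Nfix 0.06 and that of Ebf3 0.06, and Ebf3 had 0.0507 without control B and 0.0621 without control C. For Nfix it was 0.0848 with no mean-variance trend and 0.0633 with the most abundant row per gene.

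The 2 that rose were Zfhx3 and Lhx9. Zfhx3, a large zinc finger homeodomain factor, had 12888, 12491 and 13838 with AAV-Sox11, and 6987, 7437 and 9633 with AAV-Control (log2 fold change 0.72 ± 0.13, SE, limma adjusted p = 0.0391). Lhx9, a LIM-homeodomain factor of nNOS-positive amacrine cells in mouse, had 82.37, 114.2 and 93.52 with AAV-Sox11, and 34.95, 45.11 and 21.22 with AAV-Control (1.54 ± 0.29, SE, limma adjusted p = 0.0465). Neither overlapped between the groups. Without control A the adjusted p was 0.0813 for Zfhx3 and 0.0869 for Lhx9, and without control B it was 0.0543 for Zfhx3. With no mean-variance trend it was 0.0718 for Zfhx3 and 0.0607 for Lhx9, and with library size alone 0.0514 for Zfhx3. With the replicate block Meis2 (0.71, adjusted p = 0.0285) and Maf (1.02, adjusted p = 0.0345) also rose, and Prdm13 (-0.77, adjusted p = 0.0312) and Neurod1 (-0.64, adjusted p = 0.0488) fell. Prdm13, a zinc finger factor needed for many amacrine cells in mouse, averaged 691.6 with AAV-Sox11 and 1200 with AAV-Control.

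Calb2 had 312.8, 353.1 and 421.3 with AAV-Sox11, and 456.3, 406 and 427.4 with AAV-Control. It was lower with AAV-Sox11 in 3 of 3 same-day pairs, but AAV-Sox11 C lay above control B, and the log2 fold change of -0.26 ± 0.13 (SE, limma adjusted p = 0.274) did not pass. Calb1 had 228.3, 266.9 and 320.8 with AAV-Sox11, and 433, 278.5 and 281.7 with AAV-Control. Control A alone stood above the rest, the other 5 libraries overlapped, and the log2 fold change was -0.27 ± 0.21 (SE, limma adjusted p = 0.46). Without both libraries of replicate A it was 0.06.

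Receptors for GABA and glycine, which many retinal neurons carry, were listed as the targets of these transmitters. Of 25, 22 were measured, and 0 rose and 3 fell in limma, or 0 and 6 with the replicate block. At an unadjusted p under 0.05, 1 was higher and 10 were lower, against 12.6% and 11.8% of all genes, while 1.52% of all genes fell in limma and 2.68% with the replicate block. The median log2 fold change of the 22 was -0.42. Gabrg3, a gamma subunit of the GABA-A receptor, had 4962, 4922 and 4705 with AAV-Sox11, and 7933, 9125 and 8345 with AAV-Control (log2 fold change -0.80 ± 0.08, SE, limma adjusted p = 0.0132). The glycine receptor alpha subunits Glra2 and Glra4 had log2 fold changes of -0.40 ± 0.08 and -0.61 ± 0.10 (SE), at limma adjusted p of 0.0448 and 0.0294. Glra2 had an adjusted p of 0.0652, 0.0551 and 0.0571 without control A, B and C, and Glra4 of 0.0599 without control A. For Glra2 it was also 0.0612 with upper-quartile scaling, 0.0526 with median-of-ratios scaling and 0.0556 with the most abundant row per gene. With no mean-variance trend it was 0.0953 for Glra2 and 0.0531 for Glra4. Others did not pass: Gabbr2, a GABA-B receptor subunit, had 0.11 ± 0.08 and Gabra2, an alpha subunit of the GABA-A receptor, 0.59 ± 0.29. Further calls with the replicate block included Gabra5 (-1.69, adjusted p = 0.0344) and Gabrr3 (-1.72, adjusted p = 0.0354). Gabrr3, a rho subunit, had 126.1, 76.85 and 66.37 with AAV-Sox11, and 628.2, 140.2 and 266.3 with AAV-Control. Control A was thus far above the rest, and control B lay close to AAV-Sox11 A.

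Markers of other cells that the sort may hold are given beside these groups. All 12 measured bipolar cell markers of 14 had negative log2 fold changes, with a median of -0.83 and a summed level of 6945 to 8003 with AAV-Sox11 and 8486 to 15165 with AAV-Control. None of the 12 passed in limma, 4 were lower and 0 higher at an unadjusted p under 0.05, and 2 fell with the replicate block. Of all genes, 11.8% were lower at that p and 2.68% fell with the block. The largest part of the sum with AAV-Sox11 was Prkca, at 5237 to 5807, which was highest in control B (log2 fold change -0.06). Cabp5, Grik1 and Lhx4 were highest in control A, at 2183, 1608 and 1419, beside 359.9, 287.3 and 267.7 in control B. Of 15 rod and cone markers, 14 were negative, with a median of -0.66 and sums of 24439 to 44458 with AAV-Sox11 and 39048 to 63138 with AAV-Control. None of these passed in limma, 4 were lower and 0 higher at an unadjusted p under 0.05, and 5 fell with the replicate block, against 11.8% and 2.68% of all genes lower. Gabrr1, Gabrr2 and Gabrr3 encode rho subunits, best known in the retina from bipolar cells, and had log2 fold changes of -1.31 ± 0.51, -1.03 ± 0.46 and -1.72 ± 0.51 (SE). Control A was the highest library for each of them. The part of bipolar cells and photoreceptors in the receptor, Pax6 and Slc6a9 results was not tested.

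Of 14 measured ganglion cell markers, 1 rose and 0 fell in limma, or 3 and 0 with the replicate block, with a median of 0.70 and 12 positive values. Among them 6 were higher and 0 lower at an unadjusted p under 0.05, and 6 were higher without overlap. Of all genes, 12.6% were higher at that p and 16.2% without overlap, while 0.796% rose in limma and 2.09% with the block. The gene that rose, Stmn2, encodes a tubulin-binding protein of growth cones (1.04 ± 0.20, SE, limma adjusted p = 0.0447, and 0.0985 and 0.062 without control A and C). Its adjusted p was 0.0501 with upper-quartile scaling and 0.0718 with no mean-variance trend. The summed level of the 14 was 9976 to 13153 with AAV-Sox11 and 7991 to 11358 with AAV-Control. Horizontal cells, which share Pax6, Calb1, Prox1 and the AP-2 genes with amacrine cells, had 6 measured markers of 10. None of these passed in limma, 1 was higher and 0 lower at an unadjusted p under 0.05, and sums were 1182 to 1207 with AAV-Sox11 and 1193 to 1452 with AAV-Control. At that p 12.6% of all genes were higher. The largest part of the horizontal cell sum with AAV-Sox11 was Tpm3, at 476.7 to 548. Onecut1, of the same list, averaged 14.72 with AAV-Sox11 and 16.85 with AAV-Control. The horizontal cell gene Lhx1 was not analysed here. The part of ganglion and horizontal cells in the results above was not tested.

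The 9 genes did not move as a block across the 6 libraries. Pearson correlations of log2(value + 1), which mix the group difference with the spread within groups and rest on 6 libraries that lack 1 direction of spread, are given as a description. Pax6 and Slc6a9 had r = 0.91, and Gad1 and Gad2 had 0.80. Tfap2a and Tfap2b had 0.82, and Tfap2a and Gad1 0.83. Calb1 and Calb2 had 0.83. Between these sets the values were lower or negative, with -0.79 for Gad2 and Slc6a9 and -0.80 for Tfap2a and Pax6, while Slc32a1 had 0.77 with Gad1 and 0.24 with Gad2.

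Among 9503 genes of mean value 100 or more, the 5 most like Pax6 over the 6 libraries were Asphd2, Ghr, Scn1a, A930009A15Rik and Dctn6, with r between 0.9951 and 0.9993. Ghr, the growth hormone receptor, had a log2 fold change of -1.05, and Scn1a, a voltage-gated sodium channel, of -0.70. The 5 most like Gad2 were Nckipsd, Atp6v0d1, Ube2q1, Zfp212 and Braf, with r between 0.9949 and 0.9985 and log2 fold changes of 0.08 to 0.23. These likeness values are a description over 6 libraries and carry no test.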

How the data were processed

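RNA-seq had been made from 6 libraries of Thy1-sorted mouse retinal cells, 3 with AAV-Sox11 and 3 with AAV-Control, with an amplification kit for very low input, per the labels. Tools named in the submitters' processing notes are CASAVA 1.8.2 and edgeR, the second with no version, and the build is mm10. Aligner, counter, use of strand and annotation were not given in the sources used here. A single table with 26691 rows, 1 per Ensembl transcript, was deposited. Its whole-number columns, deposited by the authors with no unit in the file headers, were taken as a score (values adjusted by an unrecorded step and then rounded), since 1 direction across libraries holds no spread beyond rounding (measured over 1177 rows of mean value above 2000; cosine with the group contrast -0.0185), so that count models were not used. The normalized columns are a signal, made by the authors as the whole numbers times 1 factor per library (0.9649 to 1.043). Log2 fold changes, p-values and false discovery rates deposited by the authors are named as theirs. Rows without a gene name numbered 357 and entered no gene value.

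Normalized values were summed by gene name to 15450 genes and tested with limma-trend (limma 3.58.1, R 4.3.3) on log2(value + 1), without covariates, with Benjamini-Hochberg adjustment over all genes and a call at an adjusted p under 0.05. No gene was filtered (smallest mean 7.2). Log2(value + 1) understates the changes of low genes. Rows were fitted the same way over all rows, and row shares as log2 of (row + 1) over (rest of the gene + 1) over 15873 rows, a test chosen after seeing the data. Errors of fold changes are SE of the fit and those of values are SD over 3 libraries, each a pool of animals. The number of libraries limits the precision, and read depth is unknown because the values are not reads. The replicate letter pairs libraries, since the series description ties each replicate to a shared day. Deviations of same-letter libraries from their group means had r = 0.00, 0.79 and 0.24 for A, B and C. Across letters, r ran from -0.88 (AAV-Sox11 B with AAV-Control C) to 0.20 (AAV-Sox11 A with AAV-Control C). The missing direction, which lay mostly in AAV-Sox11 B, bears on these values, so they do not measure an effect of a shared day. Annotation came from GENCODE M21 on GRCm38, in which all 23 rows were found, and promoter sequences from RefSeq GRCm38.p6. Per-kilobase levels divide each row by its annotated exon length before summing.

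The members and the gene lists were chosen with earlier results of these data known. All 9 genes are named, and from each other list every gene past the threshold plus at most 4 of the highest mean value; Slc6a11, Abat, Shmt2, Gabra2, the rho subunits, Rbpms and the genes called with the replicate block alone were named after their values were seen. The 5 genes most like Pax6 and Gad2 were taken by Pearson r. Some listed genes enter the counts and medians, but their own results are not reported here.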

Additional observations from a re-analysis of the deposited data

How the results depend on the processing

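Each of the 9 genes was refitted under 22 alternatives: pseudocounts of 0.5 and 8, a mean value of at least 50, library size alone, upper-quartile and median-of-ratios scaling, the replicate block, the missing direction or an index of sex-linked transcripts (log2 Xist over the mean of 4 Y genes) as a covariate, robust variance, no mean-variance trend, the most abundant row per gene, leaving out 1 library or both of a letter, and, chosen after seeing the data, block and missing direction together. Refits of rows and of the other lists were also chosen after seeing the data. Pax6 kept its side of the threshold in 11 and Slc6a9 in 9, both with a negative log2 fold change in all 22. With the replicate block the count of the 9 genes that fell was again 2, while all genes gave 323 higher and 414 lower. With the missing direction as a covariate Slc6a9 had -0.93 (adjusted p = 0.113) and Pax6 -0.60 (0.084), and limma called 0 of the 9 and 0 and 0 of all genes. With the block added, adjusted p was 0.0576 for Slc6a9 and 0.0727 for Pax6, with 63 and 69 calls over all genes and 0 among the 9. Without the trend they were 0.0701 and 0.0592, with 57 genes higher and 0 of the 9 called. With the most abundant row, Slc6a9 had -0.89 (0.0816) and 1 of the 9 fell. Library size alone gave 356 genes lower. No scaling moved the median of all genes by more than 0.1 on the log2 scale.

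The sex index was 6.86, 8.11 and 8.45 in AAV-Sox11 A, B and C, and 6.82, 6.79 and 5.26 in AAV-Control A, B and C, so it moves with the group. With it as a covariate, limma called 0 and 0 of all genes and 0 of the 9. Slc6a9 had -0.81 (adjusted p = 0.241) and Pax6 -0.45 (0.136), and 4 genes changed sign, with log2 fold changes of -0.34 for Gad1, -0.05 for Gad2, -0.0038 for Tfap2a and -0.35 for Tfap2b. Row log2 fold changes that changed sign were -0.31 for Gad1-208, -0.42 for Gad1-205 and 0.26 for Pax6-209, and with library size alone -0.04 for Gad1-208. The cause was not tested.

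Over leaving out 1 library or both of a letter, all genes gave 0 to 339 higher and 0 to 406 lower, and 0 to 2 of the 9 fell. Slc6a9 ran from -1.12 to -0.78 and Pax6 from -0.66 to -0.52. Gad1 ran from -0.11 to 0.27, Tfap2b from -0.07 to 0.77, Slc32a1 from -0.15 to 0.0017 and Calb1 from -0.49 to 0.06. Gad1-208 ran from -0.14 to 0.19, Gad1-205 from -0.06 to 0.59 and Pax6-209 from -0.41 to 0.07. Sign changes were seen without control C (Gad1, Tfap2b), without both libraries of C (Gad1 -0.11, Tfap2b -0.02, Pax6-209) and without both of A (Slc32a1 0.0017, Calb1). An arm of 2 libraries was fitted on the spread pooled over both groups.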

Other observations

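Peptide, transporter and adhesion genes that mark amacrine subtypes were listed too. Of 26, 15 were measured, and 1 rose and 1 fell in limma, with a median log2 fold change of 0.36 and 11 of 15 values positive. Among them 6 were higher and 1 lower at an unadjusted p under 0.05, and 5 were higher and 1 lower without overlap. Of all genes, 12.6% were higher and 11.8% lower at that p, and 16.2% were higher and 14.4% lower without overlap. In limma 0.796% of all genes rose and 1.52% fell. Dab1, an adaptor of reelin signalling found in AII amacrine cells, had 2175, 2204 and 2374 with AAV-Sox11, and 3872, 3706 and 3874 with AAV-Control, without overlap (log2 fold change -0.76 ± 0.07, SE, limma adjusted p = 0.0132). Penk, the enkephalin precursor, averaged 70.94 with AAV-Sox11 and 31.42 with AAV-Control (1.15 ± 0.17, SE, limma adjusted p = 0.0241, and 0.0515 without control A). Snhg11, a long non-coding RNA of neurons and the most abundant of the list, had 0.07 ± 0.14. Chat, Slc18a3, Th and Npy were not analysed here.

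Of 19 measured genes of 20 for calcium-binding proteins, 0 rose and 2 fell in limma, with a median of -0.27, and 1 was higher and 6 were lower at an unadjusted p under 0.05. Of all genes, 0.796% rose and 1.52% fell in limma, and 12.6% were higher and 11.8% lower at that unadjusted p. Hpca, hippocalcin, averaged 195 with AAV-Sox11 and 421 with AAV-Control (-1.10 ± 0.12, SE, limma adjusted p = 0.0153), and Cabp1, a calmodulin-like regulator of calcium channels, 244.1 and 422.1 (-0.77 ± 0.14, SE, limma adjusted p = 0.0425, and 0.054 without control A, 0.0638 with no mean-variance trend and 0.104 with the most abundant row per gene). Calm2, a calmodulin gene and the most abundant of the list, had 0.17 ± 0.12. Of 4 measured T cell markers of 8, which bear on a Thy1 sort, Zap70 and Grap2 rose (2.36 ± 0.34 and 2.69 ± 0.34, SE, limma adjusted p = 0.022 and 0.0169), while Ptprc had -0.27 ± 0.37. Cd4 averaged 170.1 with AAV-Sox11 and 79.14 with AAV-Control (1.28 ± 0.47, SE, limma adjusted p = 0.154), and the groups overlapped. Of 7 measured microglia and endothelial markers of 12, 0 passed in limma, 0 were higher and 2 lower at an unadjusted p under 0.05, and the median was -0.53. At that p 11.8% of all genes were lower.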
